A study of Homo sapiens with 2 samples.

Results

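The 45 genes described here encode proteins that cells use to enter and complete mitosis, and most of their transcripts accumulate in the G2 and M phases of the cell cycle. They were given as a list of gene symbols and found by gene name in both deposited libraries, where they are 45 of 62704 genes. RNA levels of these genes were examined in barcodes that held over 500 genes and over 1000 transcripts, of which mitochondrial ones made up no more than 20%. This left 20178 barcodes of cells and 14228 of nuclei. The material was cerebral organoids of the human embryonic stem cell line hES H9, a 3D culture that forms neuroepithelium, radial glia (RG), intermediate progenitors (IP) and neurons. Control organoids (CO) were made with a commercial kit and sampled at days 45, 55 and 70. Dissociated organoids (DISS) were reduced to a single-cell suspension at day 45, left to reaggregate and sampled at days 48, 55 and 70. Constrained organoids (CONS) were freed of Matrigel at day 13, embedded in agarose and sampled at day 55. Single cells of all of these form the cells library, while the nuclei library, per the methods of the study, holds nuclei of day 45 control organoids taken from whole organoids and after dissociation. The deposited treatment label of the nuclei also names an embedded group, so which organoids gave the nuclei is uncertain. All groups share 1 cell line.

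In the developing cortex, RG that line the ventricle round up for mitosis at its surface and return to the cycle or give rise to IP and neurons. Other progenitors, such as IP, lie away from that surface. Entry into mitosis is set by CDK1 with cyclins A and B. The spindle checkpoint then holds anaphase until every kinetochore is attached, kinesins and associated proteins build and move the spindle, and cytokinesis proteins close the cleavage furrow. Neurons have left the cycle and normally carry few of these transcripts, so the genes mark dividing cells in a mixed tissue.

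Both libraries were made by split-seq, in which RNA is labelled in several rounds of wells and a combination of well barcodes stands for 1 cell. The kept barcodes had a median of 2615 transcripts in cells and 3890 in nuclei. Every barcode of a library carries the same sample name, so neither organoids, conditions nor days could be told apart, and each library was 1 sample. No test was therefore possible between groups, no p-values are given, and day, condition and kind of material cannot be told apart where the libraries differ. The 48 first-round wells of cells and 12 of nuclei are of unknown condition, and the 8 and 2 sub-libraries measure technical spread only. The study describes fewer samples of nuclei than wells, so several wells must share a sample, and wells of cells may do so too. Ranges and counts over wells are therefore not over distinct samples. In cells, 2642 of 16246 well combinations occurred in more than 1 sub-library, and 46.5% of such pairs fell in the same cluster, compared with 22.2% of pairs among all barcodes of the well. The share was 13.4% against 12.2% in nuclei, and 533 combinations were kept in both libraries. Values with only the deepest barcode of each combination are given beside the main results.

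Shared promoter elements are a known feature of G2/M genes, which are bound by DREAM and MuvB complexes at the CHR element and by NF-Y at CCAAT boxes. The 250 bases before the RefSeq start of MKI67, TOP2A, PRC1 and CENPA (GRCh38.p14) are shown. The first 3 have the most transcripts among members that hold both elements there. CENPF, SMC4 and CENPE, which do not hold both, were therefore passed over. CENPA is shown because it departs from the other members in its ratio of neuron-like to RG-like barcodes and in its detection beside other members. The sequences are written 5′ to 3′ on the strand of the gene, with every CHR (TTTGAA or TTCGAA) and every CCAAT, in either orientation, in capitals. MKI67 lies at chr10:128126424-128126673 (minus strand), TOP2A at chr17:40417897-40418146 (minus), PRC1 at chr15:90994536-90994785 (minus) and CENPA at chr2:26785806-26786055 (plus).
MKI67: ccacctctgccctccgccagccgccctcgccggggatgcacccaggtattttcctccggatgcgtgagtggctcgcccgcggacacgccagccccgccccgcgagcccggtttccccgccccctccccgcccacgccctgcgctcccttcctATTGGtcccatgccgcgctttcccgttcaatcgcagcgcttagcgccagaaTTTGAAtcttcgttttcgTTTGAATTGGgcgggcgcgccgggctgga
TOP2A: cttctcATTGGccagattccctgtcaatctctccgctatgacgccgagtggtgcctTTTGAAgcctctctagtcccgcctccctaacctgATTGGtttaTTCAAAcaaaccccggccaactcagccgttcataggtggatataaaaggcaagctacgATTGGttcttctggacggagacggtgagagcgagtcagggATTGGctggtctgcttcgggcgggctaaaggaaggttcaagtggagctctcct
PRC1: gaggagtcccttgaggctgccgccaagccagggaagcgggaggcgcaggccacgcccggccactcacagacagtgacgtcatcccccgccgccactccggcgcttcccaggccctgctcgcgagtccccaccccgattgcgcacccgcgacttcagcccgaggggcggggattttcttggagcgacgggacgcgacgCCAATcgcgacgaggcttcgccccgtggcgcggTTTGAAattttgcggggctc
CENPA: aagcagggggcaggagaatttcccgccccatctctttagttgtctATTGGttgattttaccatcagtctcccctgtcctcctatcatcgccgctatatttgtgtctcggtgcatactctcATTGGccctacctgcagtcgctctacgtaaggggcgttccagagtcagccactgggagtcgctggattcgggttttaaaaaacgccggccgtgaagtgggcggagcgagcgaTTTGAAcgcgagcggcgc
In MKI67 the last CHR and a CCAAT box on the other strand share a base. The CHR nearest to the start began 29 bases before it in MKI67, 20 in PRC1 and 18 in CENPA, but 151 in TOP2A, which instead holds 4 CCAAT boxes. Of the 41 members with a promoter entry, 26 (63.4%) held a CHR, compared with 17.2% of 27305 genes, and 23 (56.1%) held one within 100 bases of the start, compared with 6.14%. A CCAAT box was found in 33 (80.5%) against 37.0% of all genes, and 2 or more in 21 (51.2%) against 11.5%. Both elements occurred in 21 members (51.2%) and in 6.24% of all genes. CENPE, KIF2C and ARHGAP11A held neither in this window. AURKA, TTK, TPX2 and TROAP had no entry. These matches describe letters in the sequence and no binding was measured.

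The 45 genes together gave 346710 transcripts in cells and 159285 in nuclei, which is 22.0 per 10000 transcripts in cells and 22.1 in nuclei. Levels are given below as transcripts per 10000, first in cells and then in nuclei. They depend on transcript length, so levels of different genes are compared only on the scale per kilobase of annotated exon. Among chromosome structure genes, MKI67 (chr10:128096659-128126423), which coats mitotic chromosomes, was at 2.14 and 1.52. SMC4, a condensin subunit, was at 1.57 and 1.64, and TOP2A, the topoisomerase that untangles sister DNA, at 1.31 and 0.897. Of centromere genes, CENPF (chr1:214603185-214664574), a kinetochore protein, was at 2.46 and 1.77, and the kinetochore motor CENPE at 1.19 and 1.37.

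Spindle and motor genes are described next. TPX2, which nucleates microtubules near chromosomes, was at 0.915 and 0.887, the spindle protein NUSAP1 at 0.723 and 0.641, and PRC1, which bundles the central spindle, at 0.696 and 0.592. The kinesin KIF15, which helps to keep spindle poles apart, was at 0.707 and 0.905, and KIF20B, a kinesin of cytokinesis, at 0.691 and 0.682. KIF18B, a motor that shortens microtubules, was at 0.511 and 0.843. Checkpoint kinase BUB1B was at 0.539 and 0.719. Among cytokinesis genes, ECT2, an exchange factor needed for furrow formation, was at 0.533 and 0.594. Of the entry genes, CDC25C, the phosphatase that activates CDK1, was at 0.345 and 0.429, and CDK1 itself at 0.222 and 0.212. The helicase PIF1 was at 0.199 and 0.209.

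Per kilobase of exon, TPX2 was the highest member in both libraries, at 0.254 in cells and 0.246 in nuclei. It was followed in cells by TOP2A at 0.205, NUSAP1 at 0.201, CENPF at 0.197 and SMC4 at 0.193, and in nuclei by SMC4 at 0.201, KIF18B at 0.179, NUSAP1 at 0.178 and KIF15 at 0.171. The lowest per kilobase were ARHGAP11B (0.00730 and 0.00814) and NEK2 (0.0174 and 0.0127). Whether intronic reads were counted is not given in the sources used here, and a gene with long introns would gain from them.

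ARHGAP11A (chr15:32615144-32639941) and ARHGAP11B (chr15:30624494-30649529) are copies that share part of their sequence, with 6406 and 4544 bases of annotated exon. ARHGAP11B is found only in humans and is known for its role in progenitor expansion. ARHGAP11A was at 0.236 and 0.259 per 10000 and ARHGAP11B at 0.0332 and 0.0370, from 522 transcripts in cells and 267 in nuclei. Reads can be split between these copies, and other genes overlap both loci on the same strand, so both values are uncertain. In RG-like barcodes, defined below, ARHGAP11B stood at 0.0751 and 0.0631, and in neuron-like barcodes at 0.0116 and 0.00747.

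**Figure D1:**
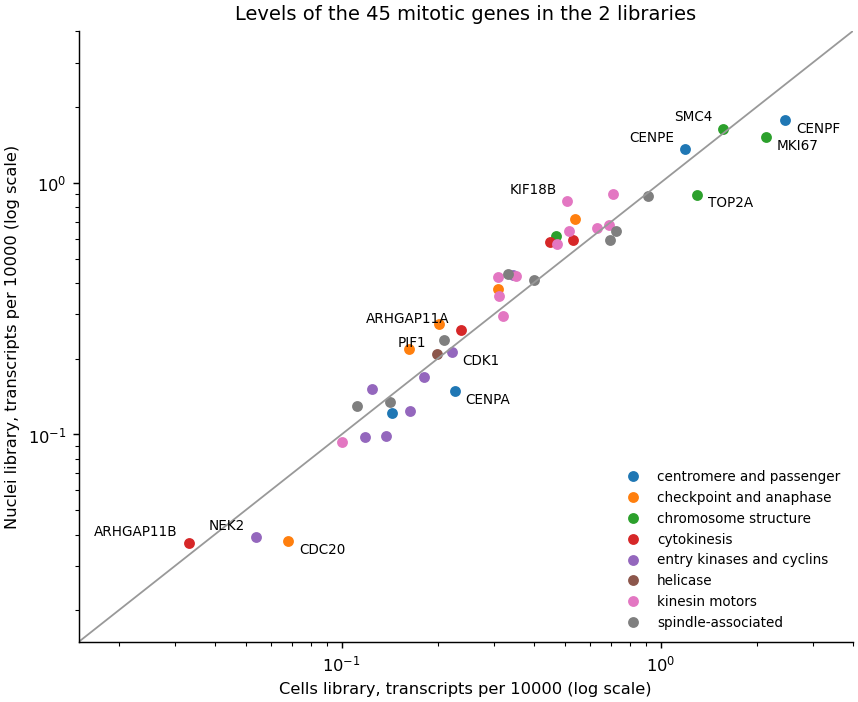
Transcripts per 10000 of each of the 45 genes in the cells library (x axis, log scale) and the nuclei library (y axis, log scale), coloured by role, with the line of equal levels. KIF18B (above the line, ratio of nuclei to cells 1.65) and CDC20 (below it, 0.553) lie farthest from equality.

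The ratio of nuclei to cells compared the same genes in the 2 kinds of material. Over all 45 members its median was 1.05, and with each of the 8 cells sub-libraries in turn as the cells it lay between 0.976 and 1.16 (SD 0.0651). No member reached 2-fold in either direction, where 0.528% of 11940 genes tested were at least 2-fold higher and 7.62% at least 2-fold lower. The highest ratios were those of KIF18B, at 1.65 (95% interval 1.60 to 1.71), the central spindle motor KIF23 at 1.36, the checkpoint kinase TTK at 1.36, separase (ESPL1) at 1.35 and BUB1B at 1.33. The lowest was that of CDC20, the activator of the anaphase-promoting complex, at 0.553 (0.484 to 0.632). CENPA, the centromeric histone, followed at 0.658, TOP2A at 0.687, MKI67 at 0.711 and cyclin A2 (CCNA2) at 0.715. Intervals here and below cover counting error only. Spearman's rank correlation across the 45 genes, which share their libraries and are not independent replicates, was 0.432 between the ratio and intron length and 0.973 between levels in cells and nuclei. Taking dividing barcodes alone, the median ratio was 1.27, and 10 members lay on the other side of 1 than over all barcodes, so the sign for members near 1 depends on which barcodes are counted.

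To compare barcodes of different depth, each was thinned to 1000 transcripts, and a barcode was called dividing with at least 3 of the 45 genes detected. This was the case for 5232 of 20178 barcodes of cells, 25.9% (95% exact interval 25.3 to 26.5), and for 2642 of 14228 nuclei, 18.6% (17.9 to 19.2). Sub-libraries ranged from 20.8% to 30.6% in cells (mean 26.0%, SD 3.98, n = 8), and were at 18.1% and 19.1% in nuclei. With at least 5 genes the share was 11.7% in each library. None of the genes was detected in 36.0% of cells and 56.1% of nuclei. The class is a range cut from a count, since 2737 cells and 986 nuclei had exactly 2 of the genes and 1733 and 576 exactly 3. The name dividing stands for this count, here and below, and division itself was not measured. Keeping only the deepest barcode of each well combination gave 26.2% and 18.7%.

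The share moved with depth even after thinning, and differently in the libraries. In cells it was 30.9% in barcodes of 1000 to 1500 transcripts, 18.6% between 6000 and 12000 and 24.0% above. In nuclei it was 13.7% in the shallowest class and 33.4% above 12000. The 45 genes were also present outside the kept barcodes. In barcodes of 10 to 100 transcripts, taken as background RNA, they gave 22.7 per 10000 transcripts in cells and 21.1 in nuclei, close to the kept barcodes. The part of background RNA in the shares was not tested.

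Barcodes were clustered without the 45 genes and without other G2/M, S phase and cell cycle exit genes, and clusters were named from marker lists. Over all kept barcodes of each library, dividing barcodes were most frequent in RG-like clusters and least frequent in neuron-like clusters. RG-like clusters, which express genes such as SOX2, PAX6 and SLC1A3, had 44.5% dividing barcodes in cells (43.1 to 45.9, of 4823) and 30.3% in nuclei (29.2 to 31.4, of 6845). IP-like clusters (EOMES, NEUROG2) had 19.2% and 24.7%, below the share of all barcodes in cells and above it in nuclei. Neuron-like clusters (STMN2, DCX, GRIA2) had 2.97% in cells (2.39 to 3.66, of 2891) and 2.07% in nuclei (1.64 to 2.59, of 3615). The neuron-like share in cells depended on the clustering. It was 9.32% (8.13 to 10.6) in finer clusters (Leiden resolution 2) and 1.86% (1.18 to 2.78) with cell cycle genes kept in the clustering. Neuron-like shares remained below those of RG-like barcodes when only barcodes over 5000 transcripts were counted, at 2.14% against 39.9% in cells and 3.70% against 45.6% in nuclei. The order of other classes changed at that depth. IP-like nuclei had 42.9% (35.1 to 50.9), overlapping RG-like nuclei, while hem-like nuclei (3.33%, of 90) and Cajal-Retzius-like cells (1.83%, of 109) were no higher than the neuron-like barcodes of their library.

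Over all depths, the other named classes lay between these values. Hem-like clusters, named from RSPO, WNT and other genes of the cortical hem, had 11.2% and 5.59%. Each of these values is of 1 cluster, and their leading genes differed. They included FZD10, BMP3 and PAX3 in cells, where 60.9% came from a single well, and RSPO2 in nuclei. Unnamed cluster 11 of cells, with RSPO2 among its leading genes, had 12.9%, and unnamed cluster 18 of nuclei, with PAX3, had 11.9%. The 2 hem-like values may thus not be of the same cell type. Cajal-Retzius-like clusters, which hold early RELN neurons, had 7.36% and 6.25%. Choroid plexus-like clusters (TTR, HTR2C) had 29.1% in cells and 12.1% in nuclei. The first of these values differed among clusters and with depth. In cells, choroid plexus-like cluster 6 had 39.4% dividing barcodes at a median of 1392 transcripts, while cluster 17, led by genes of motile cilia, had 13.7% at 6308. The smaller cluster 25, of 115 barcodes, 93.9% of them from a single well, had 3.48% at 3576. The part of depth in the differences among these clusters was not tested. With over 5000 transcripts the choroid plexus-like share was 10.9% in cells and 12.2% in nuclei. Unnamed clusters held 9379 barcodes of cells and 1918 nuclei, of which 24.5% and 11.6% were dividing.

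Levels summed over the 45 genes had the same order among RG-like, IP-like and neuron-like barcodes. RG-like barcodes had 46.2 transcripts per 10000 in cells and 37.8 in nuclei, IP-like barcodes 23.3 and 28.1, and neuron-like barcodes 5.41 and 4.34. Choroid plexus-like cells of all depths did not follow the order of the shares. They had 12.4 per 10000, below IP-like (23.3) and hem-like cells (14.9), but 29.1% dividing barcodes, compared with 19.2% and 11.2%. A summed level weighs each barcode by its transcripts, while a share counts each barcode once. The shallow cluster 6 had 23.3 per 10000 and the deeper cluster 17 had 9.82. With over 5000 transcripts, choroid plexus-like cells had 9.84 per 10000 and 10.9% dividing barcodes. Hem-like cells then had 15.5 and 10.6%, and IP-like cells 23.7 and 19.1%. In nuclei choroid plexus-like barcodes had 13.4 per 10000 and 12.1%, both below IP-like ones. RG-like barcodes were uneven among themselves. In cells they ranged from 13.7% dividing in cluster 2 to 78.9% in cluster 10, which had 95.3 transcripts per 10000. Cluster 4, of 1437 barcodes at a median of 1344 transcripts, had 60.8% and held 873 of the 2146 dividing RG-like cells. It was named with 4 of 9 RG markers and was led by TOP2A. Neuron markers were at 27.8 and RG markers at 26.0 transcripts per 10000 there. Of the 1158 RG-like cells without mitotic genes, 849 were in cluster 2. In nuclei RG-like barcodes ranged from 3.23% in cluster 3 to 94.8% in cluster 6, at 133 per 10000. Clusters 10 and 6 were led by mitotic genes. Some of these, such as HJURP in cells and UBE2C in nuclei, were left out of the clustering, while IQGAP3 in cells and DEPDC1 in nuclei were not among the genes left out. Cluster 1 of the nuclei, led by S phase genes such as CDC45 and MCM10, had 39.7%.

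**Figure D2:**
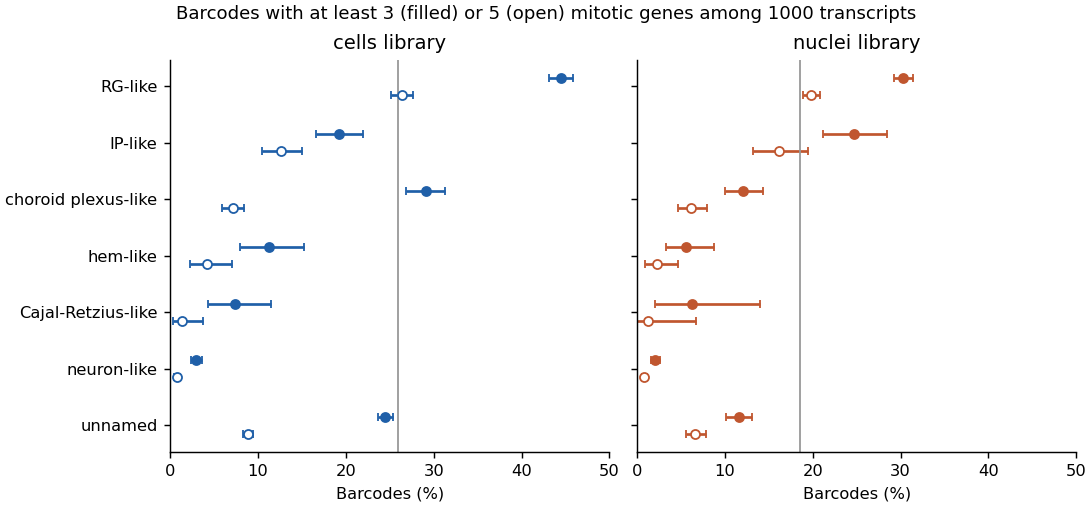
Percent of barcodes with at least 3 (filled circles) or at least 5 (open circles) of the 45 genes among 1000 transcripts, by cluster class, in cells and nuclei. Bars are 95% exact binomial intervals (counting error only) and the grey line is the share with at least 3 in all barcodes. RG-like barcodes are highest at 44.5% and 30.3% and neuron-like barcodes lowest at 2.97% and 2.07%.

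All roles were lower in neuron-like than in RG-like barcodes. Kinesins together were at 10.5 transcripts per 10000 in RG-like against 1.23 in neuron-like cells and at 10.1 against 1.13 in nuclei. Chromosome structure genes were at 11.6 against 1.15 and at 8.11 against 0.846. Entry kinases and cyclins were at 2.74 against 0.395 and at 2.27 against 0.281. Checkpoint and anaphase genes were at 2.87 against 0.233 and at 2.79 against 0.253. MKI67 stood at 4.66 in RG-like, 2.23 in IP-like, 0.948 in choroid plexus-like and 0.316 in neuron-like cells, and in the same order of classes at 2.74, 2.05, 0.709 and 0.224 in nuclei. CDK1 was at 0.473 against 0.0414 in cells and 0.363 against 0.0305 in nuclei.

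Gene by gene, 44 of the 45 members were at least 2-fold lower in neuron-like than in RG-like barcodes in each library, with a median ratio over all 45 of 0.108 in cells and 0.107 in nuclei. Over all genes detected in at least 5% of either set, 10.5% in cells and 14.6% in nuclei were at least 2-fold lower, and the median ratios were 1.01 and 0.910. The members passing that limit were 43 in cells and 42 in nuclei. KIF18B had the lowest ratio in cells, 0.0593, followed by the passenger kinase AURKB at 0.0640, MKI67 at 0.0678, KIF23 at 0.0686 and ESPL1 at 0.0690. In nuclei the lowest was the cytokinesis kinesin KIF20A, 0.0548, from 17 transcripts in neuron-like barcodes, then ESPL1 at 0.0760, GTSE1, a G2 regulator of p53, at 0.0777, BUB1 at 0.0806 and MKI67 at 0.0815. CDC20, at 0.0670 in nuclei from 8 transcripts, did not pass the limit.

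CENPA was the exception in both libraries. It was at 0.193 in neuron-like and 0.280 in RG-like cells, a ratio of 0.690, and at 0.111 and 0.184 in nuclei, a ratio of 0.604. Its annotated interval (chr2:26764289-26801067) overlaps SLC35F6 on the same strand, and the part of SLC35F6 reads in the CENPA counts was not tested. The next highest ratios in cells were those of KIF20B (0.320), the mitotic kinase PLK1 (0.305), ECT2 (0.227) and CCNA2 (0.214), and in nuclei those of CCNA2 (0.297), PLK1 (0.247), KIF20B (0.226) and ECT2 (0.186).

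The share of dividing barcodes differed widely among wells. In cells it ranged from 6.06% in well B12 to 53.2% in well A6, with a median of 19.8% over 48 wells, and in nuclei from 7.65% in A5 to 34.3% in A9, with a median of 18.5% over 12 wells. With at least 5 genes the ranges were 0.851% to 34.2% (median 9.29%) and 4.46% to 19.5% (median 11.4%). Well A8 of cells, the largest with 2606 barcodes, had 15.2% and only 3.49% RG-like barcodes. Without it the share over the library was 27.5%.

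In cells, wells differed in both makeup and division. Well C11, with 6.19% dividing, held 68.4% neuron-like and 6.19% RG-like barcodes, while C7, with 50.1%, held 3.26% and 35.5%. Within RG-like barcodes alone, the share ranged from 9.89% (A8) to 64.9% (C6), with a median of 36% over the 39 wells with at least 20 such barcodes. Wells can differ in which RG-like clusters they hold. These clusters ranged from 13.7% to 78.9% dividing in cells, and cluster 4 took 42.2% of its barcodes from a single well. The part of RG-like cluster makeup in the differences among wells was not tested in either library. In nuclei, where RG-like barcodes made up 37.4% to 57.0% of every well, the share among them ranged from 12.6% in A5 to 49.5% in A9, with a median of 32.6%. These wells held similar shares of RG-like nuclei, 47.4% and 51.2%. Wells A5, A6 and A7 were the 3 lowest, at 7.65%, 10.1% and 10.7%, and A8 and A9 the highest, at 31.3% and 34.3%. Their median depths were 3165, 3594 and 2705 against 4538.5 and 4730 transcripts. A1 and A2, the shallowest at 1463 and 1615 transcripts, had 25.6% and 24.5% dividing nuclei, and A11 and A12, the deepest at 6078 and 6064, had 15.3% and 14.0%. The part of depth in these differences was not tested. Which condition or organoid each well held is not known here.

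**Figure D3:**
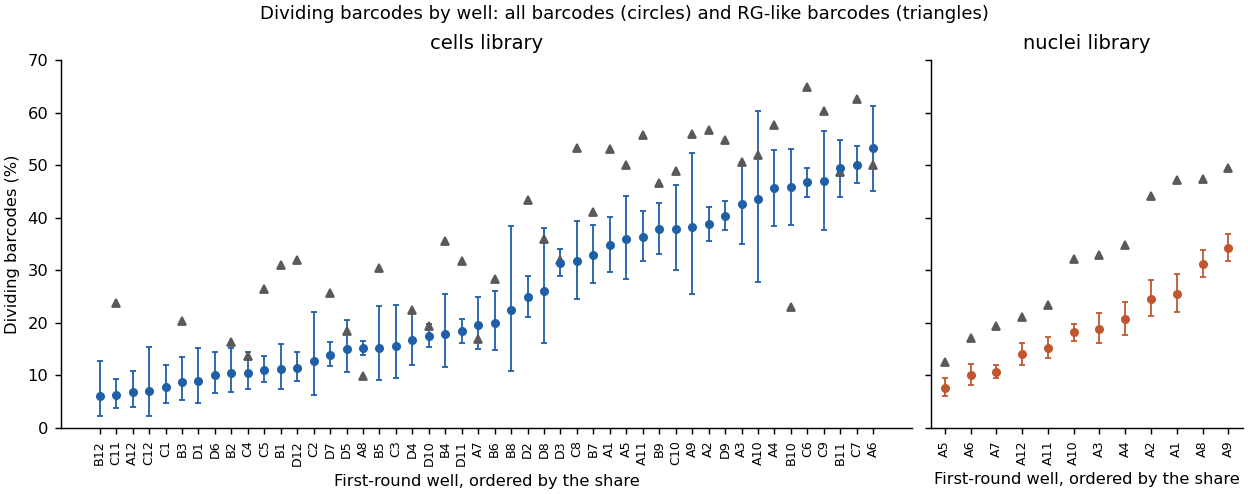
Percent of dividing barcodes in each first-round well of cells and nuclei, ordered by that percent within each library. Circles with 95% exact intervals (counting error only) are all barcodes of a well and triangles are its RG-like barcodes, drawn for wells with at least 20 of them. Shares run from 6.06% to 53.2% in cells and from 7.65% to 34.3% in nuclei.

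How well each gene marks the group was described by leaving it out. For each member, the share of barcodes with it was compared between barcodes with at least 3 of the other 44 genes and barcodes with none of them, all at 1000 transcripts. All 45 were detected more often beside the others in both libraries. CENPF was found in 37.7% against 2.79% of nuclei, MKI67 in 37.4% against 1.84% and TOP2A in 28.0% against 0.795%. In cells the same genes were found in 42.0% against 6.76%, 37.9% against 5.06% and 26.4% against 2.97%. No single gene was thus present in most of these barcodes at this depth.

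The widest contrast in cells was that of KIF20A, which was 18.7 times as frequent beside other members. It was followed by TROAP, a microtubule-associated protein, at 17.3 times, PIF1 13.9 times, the centromeric kinesin KIF2C 13.0 times and AURKB 12.8 times. In nuclei without other members, AURKB and KIF20A were each seen in 2 of 7984 barcodes, so that their ratios of 180 (48.8 to 1506) and 142 (38.3 to 1193) are imprecise. PIF1 followed at 68.5, TROAP at 59.5 and KIF2C at 56.4.

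The weakest contrast was that of CENPA, at 2.93% against 1.57% in cells (ratio 1.87) and 2.73% against 0.968% in nuclei (2.82). KIF20B followed in both libraries, at 3.17 in cells and 7.20 in nuclei. SMC4, at 4.23 and 9.06, was also among the 5 lowest in both, as were the mitotic kinase NEK2 (4.19) and cyclin B2, CCNB2 (4.87) in cells ECT2 (11.3) and PRC1 (12.3) in nuclei. Ratios were lower in cells than in nuclei for all 45 genes, and detection without other members was higher in cells for all 45, for example 6.76% against 2.79% for CENPF. Across the 45 genes, detection beside others had a Spearman's rank correlation of 0.969 between the libraries, a description over genes that share barcodes.

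**Figure D4:**
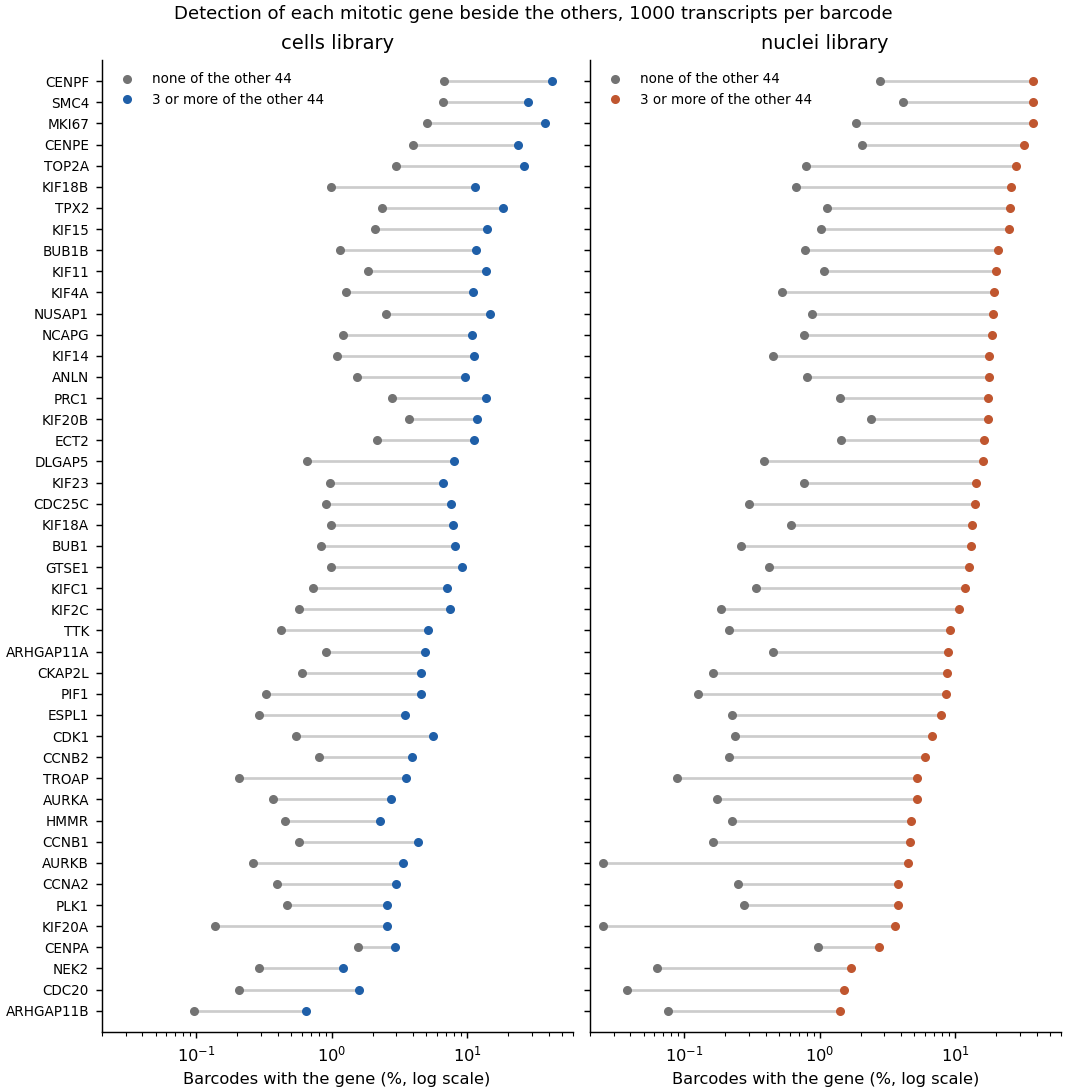
Percent of barcodes with each of the 45 genes (log scale) among barcodes with none of the other 44 genes (grey) and with at least 3 of them (coloured), after thinning to 1000 transcripts, in cells and nuclei. Genes are ordered by the second value in nuclei. Every coloured point lies to the right of its grey point, with the narrowest gap at CENPA.

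Members also differed in the S phase transcripts found beside them. In barcodes with at least 3 other members, S phase genes were summed in barcodes with and without each member. In nuclei, S phase transcripts were lowest beside PIF1 (ratio with to without 0.565), the mitotic cyclin CCNB1 (0.611), CENPA (0.683), NEK2 (0.711) and KIF20A (0.713). They were about equal beside ESPL1 (1.03), KIF15 (1.00), the kinesin KIFC1 (0.996), SMC4 (0.993) and the condensin subunit NCAPG (0.979). In cells the values ran from 0.840 for the kinesin KIF18A, 0.862 for DLGAP5 and 0.871 for CENPE to 1.20 for AURKB, 1.23 for NCAPG, 1.23 for KIF15, 1.24 for SMC4 and 1.43 for ARHGAP11B, the last from 34 barcodes with the gene and at 0.909 in nuclei. PIF1 (0.877) and NEK2 (0.885) were low there too. The order of the 45 genes had a rank correlation of 0.764 between the libraries.

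Other genes of the cycle were examined in RG-like barcodes, as levels in dividing barcodes over barcodes with none of the 45 genes. The 2 sets of cells differed in cluster makeup, as given above, and ratios within a cluster were not computed. The members themselves defined these sets, so that all 45 were at least 2-fold higher by construction, while 3.1% of 11719 genes tested in cells and 4.59% of 9695 in nuclei were. Of 26 other G2/M genes, 21 of 26 tested were at least 2-fold higher in cells (median ratio 4.79) and 20 of 24 in nuclei (8.94). HJURP, which loads CENPA onto centromeres, was at 1.05 in dividing against 0.0304 per 10000 in member-free cells (34.5 times) and at 0.988 against 0.0219 in nuclei (45.2 times). CDCA2, which targets a phosphatase to chromatin, was 28.3 and 29.8 times higher, and CDCA8, a passenger complex subunit, 19.0 and 29.5 times. PIMREG (34.0) in cells and CDCA3 (36.8) and the kinetochore gene NDC80 (31.1) in nuclei were also among the 8 highest. At the other end, JPT1 had ratios of 1.18 and 1.5, CTCF of 1.5 and 1.68 and CBX5, a heterochromatin protein, of 1.65 and 1.53.

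Genes in no list were among the highest as well. IQGAP3 was 30.6 times higher in cells and 42.3 times in nuclei, CEP55, which acts at abscission, 26.4 and 26.5 times, and the glycosylase NEIL3 19.3 and 29.4 times. SKA1, of the kinetochore SKA complex, was 20.7 times higher in cells. Of S phase genes, 20 of 43 tested were at least 2-fold higher in each library (medians 1.75 and 1.99). RRM2, a subunit of ribonucleotide reductase, was 11.0 and 19.8 times higher and E2F8 13.2 and 15.7 times, whereas the repair glycosylase UNG had ratios of 0.931 and 0.865 and TIPIN, of the replication fork, of 0.984 and 0.879.

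Of 8 genes of cell cycle exit and quiescence, 4 passed the detection limit in each library, none of which was 2-fold higher and 1 of which was 2-fold lower. Of all genes tested, 1.05% in cells and 1.04% in nuclei were 2-fold lower. The 1 was CDKN1A, the p21 inhibitor, at 0.401 in cells and 0.463 in nuclei. BTG2, an antiproliferative gene, was at 0.740 and 0.540, CCNG2 at 1.53 and 1.72, and CDKN1B, the p27 inhibitor, at 0.917 in cells and 1.68 in nuclei. Over all 8, 5 had ratios below 1 in each library. The median ratio over all genes tested was also below 1, at 0.924 in cells and 0.960 in nuclei. The 4 below the limit ranged from 0.795 to 4.75 in cells and from 0.195 (CDKN1C, 3 transcripts in dividing barcodes) to 12.6 (CDKN2C, 6 transcripts in member-free barcodes) in nuclei. Of the neuron markers, none was 2-fold higher in either library, and MAPT, the gene of tau, was 2-fold lower in nuclei (0.431) among 8 tested, at 0.693 in cells. DCX, of migrating neurons, was at 0.717 in cells and 0.563 in nuclei. The highest ratios were those of GRIA2 (1.36) and NEUROD6 (1.35) in cells and BCL11B (1.27) and GAP43 (0.994) in nuclei. Over all 12 markers, 10 had ratios above 1 in cells (median 1.21, compared with 0.924 over all genes tested) and 11 had ratios below 1 in nuclei (median 0.852, compared with 0.960).

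Detection of neuron markers in dividing barcodes was examined with 12 genes (STMN2, DCX, GAP43, SYT1, MAPT, NSG2, MYT1L, GRIA2, NEUROD6, SNAP25, ELAVL4 and BCL11B), again among 1000 transcripts. At least 2 of the markers were found in 59.7% of dividing and 67.8% of other barcodes in cells (58.3 to 61.0 and 67.1 to 68.6), and in 25.9% and 51.9% in nuclei (24.3 to 27.6 and 51.0 to 52.9). Without thinning the order turned in cells, at 91.1% of dividing and 85.8% of other barcodes, and the values were 76.7% and 76.4% in nuclei. With none of the mitotic genes and with 10 or more, the share was 67.5% and 36.0% in cells and 57.0% and 23.1% in nuclei. Choroid plexus-like barcodes, which should lack these markers, had them in 52.7% of cells at a median depth of 1662.5 transcripts and in 14.9% of nuclei at 6892.5. Barcodes of 10 to 100 transcripts, taken as background RNA, had neuron markers at 31.6 per 10000 in cells and 30.2 in nuclei. Choroid plexus-like barcodes had 14.7 and 12.4 and RG-like barcodes 13.1 and 11.7. These levels weigh deep barcodes most. In cells the markers were at 27.8 in the shallow cluster 6, which held 1047 of the 1672 choroid plexus-like barcodes, and at 6.19 in cluster 17. The choroid plexus-like share is given beside the others below, and the part of background RNA in them was not tested.

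Within RG-like barcodes the libraries differed. In nuclei the share with neuron markers was 21.2% without mitotic genes, 18.9% with 1 to 2, 18.5% with 3 to 4 and with 5 to 9, and 19.8% with 10 or more. In cells it was 31.0% without mitotic genes (28.3 to 33.8), 37.7% with 1 to 2, 46.2% with 3 to 4 (42.9 to 49.6), 43.7% with 5 to 9 and 26.1% with 10 or more (21.6 to 31.0), all below the choroid plexus-like share of that library. Depth moved the other way, with medians of 4675.5, 3644, 2125, 2552 and 6286 transcripts in these 5 sets of cells. Cluster makeup differed too. Of RG-like cells without mitotic genes, 849 of 1158 were in cluster 2, and of dividing ones 873 of 2146 were in cluster 4. The parts of depth and of cluster makeup were not tested. With over 5000 transcripts only, RG-like cells had neuron markers in 27.4% without mitotic genes (23.6 to 31.3) and 24.8% in dividing barcodes (21.8 to 28.0), compared with 15.7% of choroid plexus-like barcodes (11.9 to 20.2). The corresponding values in nuclei were 22.0%, 17.7% and 16.3%. At this depth the intervals of dividing and member-free RG-like cells overlapped.

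Few barcodes of neuron-like clusters were dividing. Of neuron-like barcodes, 86 in cells and 75 in nuclei were dividing, and neuron markers were found in 75.6% (65.1 to 84.2) and 85.3% (75.3 to 92.4) of them, against 87.7% and 92.2% of the others. At least 2 of 9 RG markers were found in 24.4% and 25.3% of these dividing neuron-like barcodes, compared with 7.02% and 2.20% of other neuron-like barcodes. Above 5000 transcripts the values were 8.11% of 37 dividing cells (1.70 to 21.9) against 6.72% of all neuron-like cells, and 29.2% of 48 dividing nuclei (17.0 to 44.1) against 3.77%, so in cells the difference was not detectable at that depth. In nuclei, 35 of the 75 came from cluster 10, which held 626 of the 3615 neuron-like barcodes. RG markers were at 7.08 transcripts per 10000 in that cluster, compared with 3.29 in all neuron-like nuclei, and the part of cluster makeup was not tested. Whether dividing neuron-like barcodes hold RNA of 2 cells was not tested. Most dividing barcodes with neuron markers lay in other clusters. Of 3122 such barcodes of cells, 1750 were in unnamed clusters and 898 in RG-like ones, and of 685 in nuclei 141 and 391. In unnamed clusters, neuron markers were found in 76.3% of dividing and 75.6% of other cells, and in 63.5% and 78.7% of nuclei. In RG-like clusters the values were 41.8% and 34.8% in cells and 18.8% and 20.3% in nuclei. Unnamed cluster 1 of cells had neuron markers at 44.1 transcripts per 10000 but only 3 of 12 past the naming limit. It held 504 dividing barcodes, 24.8% of its barcodes, compared with 25.9% of the library. In wells with at least 20 dividing and 20 other barcodes, the share with neuron markers was lower in the dividing ones in 29 of 36 wells of cells and in 12 of 12 of nuclei.

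Single markers did not behave alike. In nuclei with at least 5 mitotic genes, STMN2 was found in 0.779% and the glutamate receptor gene GRIA2 in 2.10%, compared with 7.62% and 19.7% of nuclei with none. SYT1, of synaptic vesicles, was found in 46.9% against 53.5%, and ELAVL4 in 10.8% against 14.5%. Choroid plexus-like nuclei had these genes in 0.996%, 3.54%, 23.9% and 3.10%, so in nuclei with at least 5 mitotic genes SYT1 and ELAVL4 stood above this level and STMN2 and GRIA2 did not. Of the 12 markers, 6 stood above it in nuclei, the others being BCL11B (16.1% against 8.96%), GAP43 (3.06% against 2.10%), NSG2 (1.56% against 1.33%) and NEUROD6 (0.899% against 0.332%). Exact intervals were apart for 3 of these, SYT1, ELAVL4 and BCL11B. In cells, SYT1 was at 56.1% with at least 5 mitotic genes and 53.4% with none, and MAPT at 7.73% and 15.6%, with choroid plexus-like shares of 46.4% and 8.43%. There 4 of the 12 stood above that share, SYT1, ELAVL4, BCL11B and NEUROD6, and intervals were apart for the first 3. The choroid plexus-like reference of cells is mostly the shallow cluster 6 (1047 of 1672 barcodes), so this count depends on which of its barcodes are used.

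**Figure D5:**
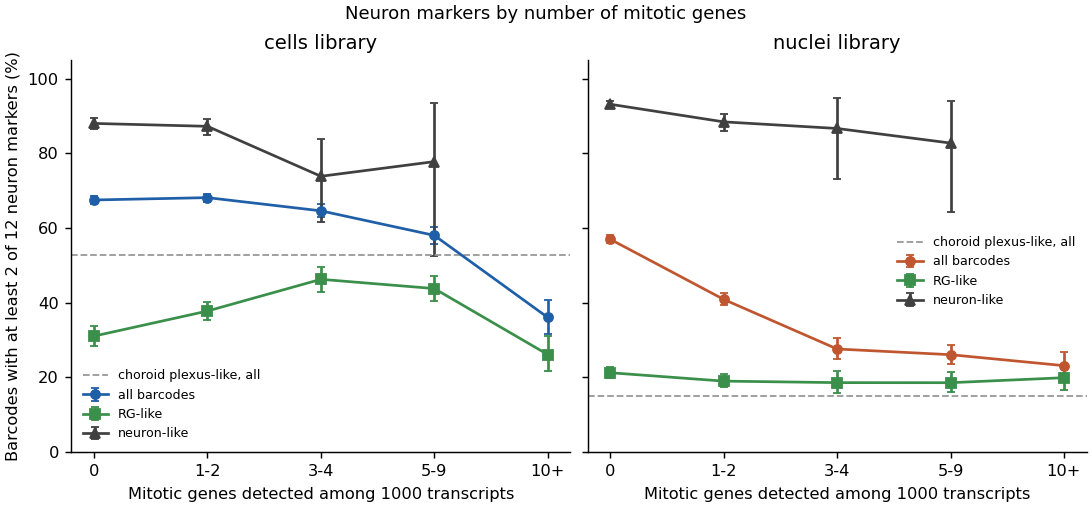
Percent of barcodes with at least 2 of 12 neuron markers (y axis) by the number of the 45 mitotic genes detected among the same 1000 transcripts (x axis), in all, RG-like and neuron-like barcodes of cells and nuclei. Bars are 95% exact intervals (counting error only) and the dashed line is the share in choroid plexus-like barcodes, 52.7% in cells and 14.9% in nuclei. Neuron-like points are drawn up to 5 to 9 genes. Over all barcodes the share is lowest with 10 or more genes, at 36.0% and 23.1%.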

How the data were processed

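The values deposited are counts of transcripts (UMIs) per barcode and gene, which the authors obtained by dividing the reads among sub-libraries with demuxFQ and running the Parse Biosciences pipeline (spipe) on GRCh38 (build from the submitters' processing notes). The deposited tables hold no normalization and no selection of cells. Kept barcodes had 1001 to 648550 transcripts in cells and 1001 to 138422 in nuclei, and depth limits the detection of single genes.

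The members, gene lists and rules were chosen with earlier results of these data known. Barcodes were thinned to 1000 transcripts without replacement. Clusters were built with scanpy 1.11.5 on 2000 variable genes (30 components, 15 neighbours, leidenalg 0.10.2, resolution 1) and named where at least 4 markers and 40% of a list reached 1.5 times the level outside the cluster and 10% of its barcodes. Clusters led by markers of another class stayed unnamed, a rule added after the clusters were seen. Scrublet, run with expected doublet rates of 5% in cells and 3% in nuclei, marked 0 barcodes as doublets in both libraries, so none were removed. Whether it found an automatic threshold was not recorded, and the same count would result without one. The count therefore does not show that doublets were absent. Ratios are of summed counts per 10000, over genes in at least 5% of either set of barcodes, and a gene was called at 2-fold. Intervals are Clopper-Pearson. Since each library is 1 sample, no test was run. The ratio step was tested on simulated counts and the thinning step on part of the nuclei. The other steps were not tested in this way.

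Named members are the 10 with most transcripts, the 5 highest and 5 lowest of each measure (at least 50 transcripts in both libraries), the first of each role and both ARHGAP11 copies. Of other genes, the 8 highest in dividing RG-like barcodes and 2 at each end of every list are named. CDK1 and the markers named with a class were added after values were seen. Gene coordinates are those of GENCODE release 44, which differs from the annotation release of the authors, and promoters are those of RefSeq. Alternatives were other thinning, thresholds, depth limits, clusterings and sets of barcodes. Also used were igraph 0.11.9, scikit-learn 1.9.0, pandas 2.3.3, scipy 1.17.1, matplotlib 3.10.9, numpy 2.4.6 and Python 3.11.15.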

Additional observations from a re-analysis of the deposited data

Results flagged for a closer look

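Barcodes outside the comparisons, with 10 to 100 transcripts, carried the mitotic genes at 22.7 transcripts per 10000 in cells and 21.1 in nuclei. They are given here because the signal lies in data that the shares do not use. The kept barcodes had 22.0 and 22.1. CENPF was at 2.71 per 10000 in these small barcodes of cells and at 2.46 in kept ones, MKI67 at 2.24 and 2.14, and TOP2A at 1.35 and 1.31. In nuclei the same genes were at 1.99 and 1.77, 1.69 and 1.52, and 0.701 and 0.897. The part of this RNA in barcodes called dividing was not tested.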

How the results depend on the processing

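The share of dividing barcodes followed its definition. In cells it was 37.2% after thinning to 2000 transcripts, 56.9% without thinning, 39.5% with at least 2 genes, 11.7% with at least 5, 21% above 5000 transcripts and 27.5% without the largest well (A8), compared with 25.9%. In nuclei the values were 27.0%, 34.9%, 25.5%, 11.7% and 25.7% above 5000 transcripts, compared with 18.6%. The share with neuron markers in dividing cells was 75.1%, 91.1%, 62.5%, 53.7%, 41.7% and 58.3% in the same order, and 36.1% with at least 3 neuron markers. In dividing nuclei it was 51.3% and 76.7% with less or no thinning, 27.7% with at least 2 genes, 28.8% above 5000 transcripts and 8.82% with at least 3 neuron markers. Without thinning, other barcodes had neuron markers in 85.8% of cells and 76.4% of nuclei, so the order after thinning turned in cells and was lost in nuclei.

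RG-like shares in cells were 38.4% and 46.7% at Leiden resolutions 0.5 and 2, 46.1% with cell cycle genes kept in the clustering and 39.9% above 5000 transcripts. Neuron-like shares in cells were 9.32% at resolution 2, 1.86% with cell cycle genes kept and 2.14% above 5000 transcripts. In nuclei, RG-like shares were 31.7% at resolution 2 and 45.6% above 5000 transcripts, and the neuron-like share 3.70% above 5000. The median ratio of nuclei to cells was 1.27 in dividing barcodes alone and 1.02 without mitochondrial transcripts. The counts of other G2/M genes at 2-fold stayed within 1.5 times, at 20 of 25 and 19 of 23 with a limit of 10% of barcodes, and 23 of 26 in each library with at least 5 genes. Another seed, a mitochondrial limit of 10% and removal of the highest Scrublet scores were run for the share of dividing barcodes over each library and for neuron markers in them, and moved these by less than the spread used here. So did keeping the deepest barcode of each well combination, which was also run for RG-like and neuron-like clusters. The causes of the other shifts were not tested. The last alternative, the largest well and the depth limit by class were chosen after seeing the data. No paired analysis was possible because each library is 1 sample. Depth limits the detection of single genes, since at 1000 transcripts most barcodes called dividing lack any given gene.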

Other observations

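Some clusters with many dividing barcodes came mainly from 1 well of cells. Cluster 24, which had no name, had 73.2% dividing barcodes of 138, and 79.0% of its barcodes came from a single well. Cluster 16, with 44.5% dividing barcodes of 559 and 43.1 mitotic transcripts per 10000, was led by CKAP2, ECT2 and CENPF, and 72.6% of it came from a single well. RG-like cluster 10, with 78.9% dividing barcodes, took 21.5% from its largest well, and cluster 6 of the nuclei, with 94.8%, took 20.8%.

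IP-like barcodes of cells differed in neuron markers with the number of mitotic genes. At least 2 neuron markers were found in 79.1% of IP-like cells without mitotic genes and 59.9% of the 167 dividing ones (52.0 to 67.4). The share was 50.9% with 3 to 4 mitotic genes and 53.5% with 5 to 9, but 84.6% (69.5 to 94.1) in the 39 barcodes with 10 or more. In nuclei it was 53.5% without mitotic genes (47.5 to 59.5) and 46.0% in 139 dividing barcodes (37.6 to 54.7), with overlapping intervals. Neuron markers summed to 45.0 transcripts per 10000 in IP-like cells without mitotic genes and 24.2 in dividing ones. The difference from RG-like barcodes was not tested.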
